A study of Mus musculus with 20 samples.

Results

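Lvrn, Ifi205 and Dkk3 are autosomal genes whose messenger RNA lay far apart between female and male mouse hearts. They are 3 of the 48967 genes with counts, and all 3 passed the filter on low counts that left 18035 genes for testing, 17430 of them autosomal. The 3 were chosen because earlier tests of these same libraries called them different between the sexes, so their female and male levels are given as a description, without a test. Diet within each sex was not named in that choice and was tested. Its contrasts use the same libraries and group means as the sex contrasts, so its p-values are not free of the choice. The difference between the diet effects of the sexes is built from the sex contrasts, so its values are a description.

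The libraries came from hearts of wild-type C57BL/6 mice aged 12 weeks, polyA-selected and sequenced on a NovaSeq, in 4 groups: high-fat females (5), chow females (5), high-fat males (5) and chow males (5). The high-fat libraries are labelled PA; they were read as high-fat because the series text names only chow and a high-fat diet and the other libraries are labelled Chow. The age, genotype, strain and tissue are shared by all 4 groups, and no label gives the composition or length of the diet, the time of collection or a batch. Chow male 4 was deposited as counts per gene instead of per piece of exon, so 19 libraries were compared and chow males number 4.

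Those 19 libraries held 57805110 to 85794067 counts each. Levels are in CPM, each count as a share of its library's size after TMM scaling, and 3 counts, the floor for a gene not seen, are worth 0.0359 to 0.0538 CPM. The floor covers counting error only. As the labels have it, the Y-linked Kdm5d was at 0 in all 10 females and at 18.0 to 22.9 CPM in the males. High-fat females 4 and 5 stood apart from the rest: they held 116.8 and 63.8 CPM of the nuclear RNA Malat1, which spanned 1130.2 to 1530.5 CPM elsewhere, and 17.9 and 10.6 CPM of Xist against a mean of 127.4 ± 11.3 CPM in chow females (SD, n = 5). The sex and diet differences of the 3 genes that rest on high-fat females are therefore given with and without those libraries. Some values of other genes are given with all libraries only. The labels do not say that libraries come from separate animals, so the p-values reflect spread among samples that may be technical. In bulk heart RNA, fewer cells of a type and less RNA per cell cannot be told apart.

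The genes belong to families with separate roles. Lvrn encodes laeverin (aminopeptidase Q), a zinc metallopeptidase of the M1 family, whose members clip single residues from the amino end of peptides; laeverin is best known from human placental trophoblast. Ifi205 encodes a protein of the Ifi200 (PYHIN) family, a cluster of interferon-inducible genes on mouse chromosome 1 whose proteins bind DNA and take part in DNA sensing and transcription. Dkk3 encodes Dickkopf-3, a secreted glycoprotein; other Dickkopf proteins block Wnt signalling at the co-receptors Lrp5 and Lrp6, whereas the role of Dkk3 in that pathway is less settled, and it has been studied in mouse cardiac hypertrophy.

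In the files Lvrn (ENSMUSG00000024481) lies on the plus strand of chromosome 18, from 46850039 to 46905446, in 20 exon pieces of 3219 bp. Ifi205 (ENSMUSG00000054203) lies on the minus strand of chromosome 1, from 174011998 to 174031810, in 10 pieces of 4177 bp. Dkk3 (ENSMUSG00000030772) lies on the minus strand of chromosome 7, from 112116017 to 112159057, in 8 pieces of 3359 bp.

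The positions of Ifi205 and Dkk3 match the GRCm38 annotation. Lvrn is annotated there from 46850038 to 46907242, so the files stop short of its annotated 3′ end. No exon piece of the 3 genes was joined with another gene, and the 1 annotated gene that overlaps any of them, the small nuclear RNA Gm23610 inside Lvrn, had a total count of 1.

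The sequence just upstream of Ifi205 is shown because the gene's family is known for induction by interferon, which acts through the interferon-stimulated response element. The stretch is chr1:174031811-174032005 on the minus strand of GRCm38.p6, 195 bases from RefSeq, written 5′ to 3′ and ending where the first exon piece of the files begins. Capitals mark the single match to the core of that element, spelled GAAA, any 2 bases and GAAA again, and searched on both strands.
Ifi205 upstream: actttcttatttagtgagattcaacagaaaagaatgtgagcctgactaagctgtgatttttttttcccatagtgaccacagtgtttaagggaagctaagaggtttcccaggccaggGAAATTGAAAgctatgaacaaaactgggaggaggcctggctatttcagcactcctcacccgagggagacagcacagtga

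The match begins 79 bases before the first exon piece and 134 bases before the gene start in RefSeq. Of 32851 mouse promoters read over the same window, 2.37% hold such a match on either strand. The core of the interferon-gamma activated site, spelled TTCNNNGAA, has no match in these letters, and 5.64% of promoters hold one. Over the full promoter window, 250 bases before to 50 after the RefSeq start, Ifi205 holds 2 matches to the first core. There 3.44% of promoters hold such a match.

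Lvrn was low in female hearts and several times higher in male hearts on both diets. Libraries of high-fat females had 0.637, 0.679, 0.544, 0.0413 and 0.712 CPM, and those of chow females 0.773, 0.62, 0.538, 0.505 and 0.825 CPM. In high-fat males the values were 4.32, 4.16, 2.56, 3.86 and 3.64 CPM, and in chow males 1, 2, 3 and 5 they were 2.32, 3.11, 3.78 and 3.47 CPM. The highest of the 10 female libraries, 0.825 CPM, lay under the lowest of the 9 male libraries, 2.32 CPM. High-fat female 4 had 3 counts of Lvrn, which is the floor.

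Group means of Lvrn were 0.523 ± 0.276 CPM in high-fat females, 0.652 ± 0.142 CPM in chow females, 3.71 ± 0.692 CPM in high-fat males (SD, n = 5 each) and 3.17 ± 0.633 CPM in chow males (SD, n = 4). The fitted difference, females minus males, was -2.83 (SE 0.36) on the log2 scale on high-fat diet, a level 7.11-fold lower in females, and -2.28 (SE 0.36), 4.84-fold lower, on chow. The high-fat difference was -2.58 without high-fat females 4 and 5. Males of the 2 diets overlapped, as did females, so the order within each sex is not separated from the spread.

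Ifi205 ran the same way, at higher levels. High-fat females had 2.63, 2.0, 2.28, 1.29 and 0.834 CPM, and chow females 1.6, 1.8, 3.99, 1.9 and 3.12 CPM. High-fat males had 7.6, 8.4, 11.3, 11.4 and 12.3 CPM, and chow males 1, 2, 3 and 5 had 7.27, 13.5, 7.69 and 10.4 CPM. The highest female library, chow female 3, stayed below every male library, while the lowest values were those of high-fat females 4 and 5.

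Mean Ifi205 levels were 1.81 ± 0.733 CPM in high-fat females, 2.48 ± 1.03 CPM in chow females, 10.2 ± 2.05 CPM in high-fat males (SD, n = 5 each) and 9.72 ± 2.87 CPM in chow males (SD, n = 4). The female minus male difference was -2.50 (SE 0.31, log2) on high-fat diet, 5.64-fold lower in females, and -1.97 (SE 0.31), 3.91-fold lower, on chow. On high-fat diet it was -2.15 without high-fat females 4 and 5. Within each sex the diets overlapped.

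Dkk3 ran the other way, higher in females. The libraries of high-fat females had 2.16, 2.72, 3.25, 2.68 and 2.32 CPM, and those of chow females 1.93, 2.26, 2.04, 2.48 and 1.86 CPM. High-fat males had 0.678, 0.664, 0.816, 0.682 and 0.894 CPM, and chow males 1, 2, 3 and 5 had 1.43, 1.03, 1.35 and 0.776 CPM. The lowest female library was again clear of the highest male one. High-fat females 4 and 5 lay among the other females for this gene.

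Mean Dkk3 levels were 2.62 ± 0.421 CPM in high-fat females, 2.11 ± 0.255 CPM in chow females, 0.747 ± 0.103 CPM in high-fat males (SD, n = 5 each) and 1.15 ± 0.303 CPM in chow males (SD, n = 4). Females exceeded males by 1.81 (SE 0.16, log2) on high-fat diet, 3.52-fold, and by 0.88 (SE 0.17), 1.84-fold, on chow. With high-fat females 4 and 5 left out it was 1.86 on high-fat diet. The counts behind the male values were few, 38 to 55 per library in high-fat males and 57 to 113 in chow males.

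**Figure D1:**
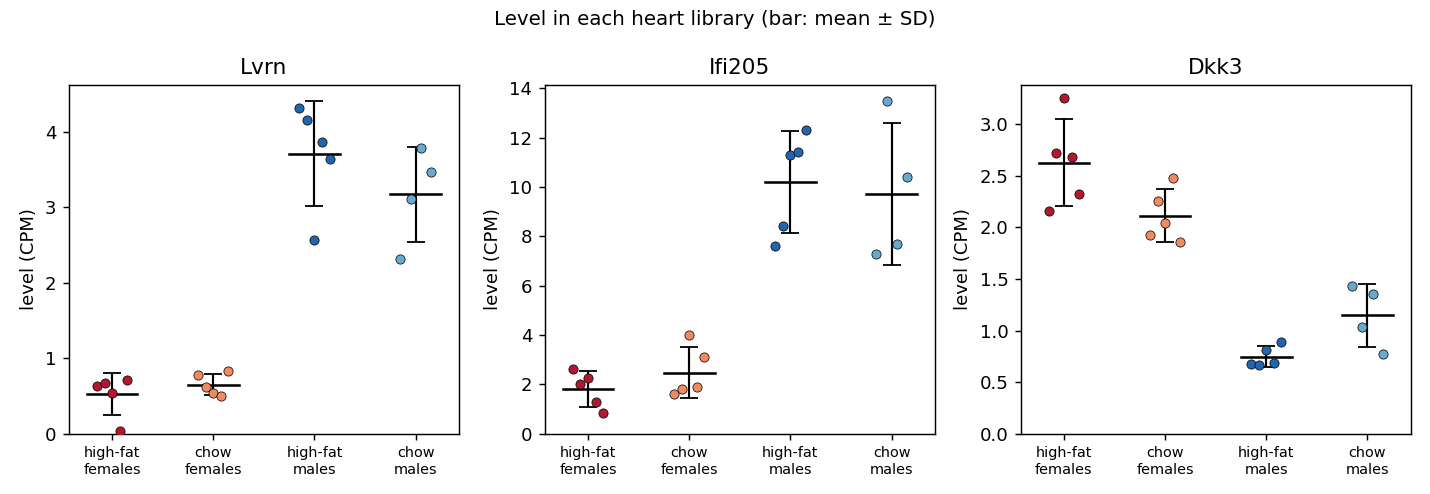
Level of Lvrn, Ifi205 and Dkk3 (CPM, vertical axis from 0) in each of 19 heart libraries, by group; points are libraries and bars the mean ± SD. For each gene the 10 female libraries lie apart from the 9 male libraries, females lower for Lvrn (0.0413 to 0.825 against 2.32 to 4.32 CPM) and Ifi205 (0.834 to 3.99 against 7.27 to 13.5 CPM) and higher for Dkk3 (1.86 to 3.25 against 0.664 to 1.43 CPM).

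Since the sex contrasts chose the genes, nothing is read from the fact that their sexes do not overlap. For scale, the 10 female and 9 male libraries did not overlap in 311 of all 18035 tested genes (1.72%) and in 286 of the 17430 autosomal ones (1.64%). Per kilobase of exon pieces, which allows genes to be set side by side, Ifi205 was at 0.433, 0.594, 2.44 and 2.33 CPM in high-fat females, chow females, high-fat males and chow males. Dkk3 stood at 0.781, 0.629, 0.222 and 0.342 CPM per kilobase in the same groups and Lvrn at 0.162, 0.203, 1.15 and 0.985. Without its 2 retained-intron pieces and its first piece, which leaves 1613 bp, Ifi205 stood at 1.02, 1.44, 5.73 and 5.49 CPM per kilobase. Whether Dkk3 or Ifi205 is the higher in females thus depends on the pieces counted, while in males Dkk3 was the lowest of the 3 either way. All 3 are of low abundance: their mean CPM exceeded that of only 32.3% (Lvrn), 45.9% (Ifi205) and 30.7% (Dkk3) of the genes tested.

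In chow male 4, counted per gene, Lvrn had 50 counts, Ifi205 280 and Dkk3 51, or 1.58, 8.84 and 1.61 CPM of that library's own total of 31686627, without TMM scaling. A read that spans several pieces counts once there and several times in the other libraries, so these values are not on the scale of the rest. On the same unadjusted scale the other 4 chow males ran from 2.3 to 3.73 CPM for Lvrn, 7.23 to 13.3 CPM for Ifi205 and 0.759 to 1.42 CPM for Dkk3.

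Counts per exon piece show whether the sexes differed along the whole gene. For Lvrn all 20 pieces were lower in females on both diets: the ratio of female to male mean CPM ran from 0.0426 to 0.211 (median 0.127) on high-fat diet and from 0.0944 to 0.316 (median 0.182) on chow. Pieces used by both annotated transcripts and pieces of only 1 transcript went the same way. The 9 pieces of both summed to 0.211 ± 0.171 CPM in high-fat females, 0.251 ± 0.113 CPM in chow females, 1.31 ± 0.387 CPM in high-fat males (SD, n = 5 each) and 1.31 ± 0.136 CPM in chow males (SD, n = 4). The 11 pieces of 1 transcript summed to 0.312 ± 0.179, 0.402 ± 0.0778, 2.39 ± 0.341 and 1.87 ± 0.507 CPM in the same groups.

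For Ifi205 all 10 pieces were lower in females, with ratios of 0.152 to 0.875 (median 0.184) on high-fat diet and 0.186 to 0.294 (median 0.258) on chow. The 0.875 belongs to a piece of 1638 bp that is exonic only in a retained-intron transcript and that held 6 counts over 5 high-fat females and 7 over 5 high-fat males. The 55 bp first piece, at 174031756 to 174031810, begins where the printed sequence ends, is not coding and lies upstream of the RefSeq start; it carried 0.131 ± 0.0675 CPM in high-fat females, 0.146 ± 0.0661 CPM in chow females, 0.862 ± 0.21 CPM in high-fat males (SD, n = 5 each) and 0.783 ± 0.206 CPM in chow males (SD, n = 4). The sex difference in level was thus present from the first bases counted.

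Ifi205 shares sequence with its relatives, so part of its reads could belong to them. Of its 4175 exonic windows of 50 bases, 777 (18.6%) also occur in another gene: 774 in Ifi211, 262 in Mndal and 60 in Ifi204. Lvrn and Dkk3 share none. The last 3 pieces of Ifi205 are shared almost throughout, and 4 of its 10 pieces share no base. Those 4 alone summed to 0.665 ± 0.248 CPM in high-fat females, 0.828 ± 0.383 CPM in chow females, 4.08 ± 0.726 CPM in high-fat males (SD, n = 5 each) and 3.69 ± 0.96 CPM in chow males (SD, n = 4). The highest female library there (1.42 CPM) was below the lowest male one (2.82 CPM).

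For Dkk3 all 8 pieces were higher in females, with ratios of 2.25 to 6.57 (median 3.69) on high-fat diet and 1.3 to 6.63 (median 1.69) on chow. The widest ratio on high-fat diet belongs to a coding piece of 138 bp, with 115 counts over 5 high-fat females and 17 over 5 high-fat males. On chow it belongs to the first, non-coding piece of 92 bp, which rests on 15 counts over 5 chow females and 2 over 4 chow males.

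**Figure D2:**
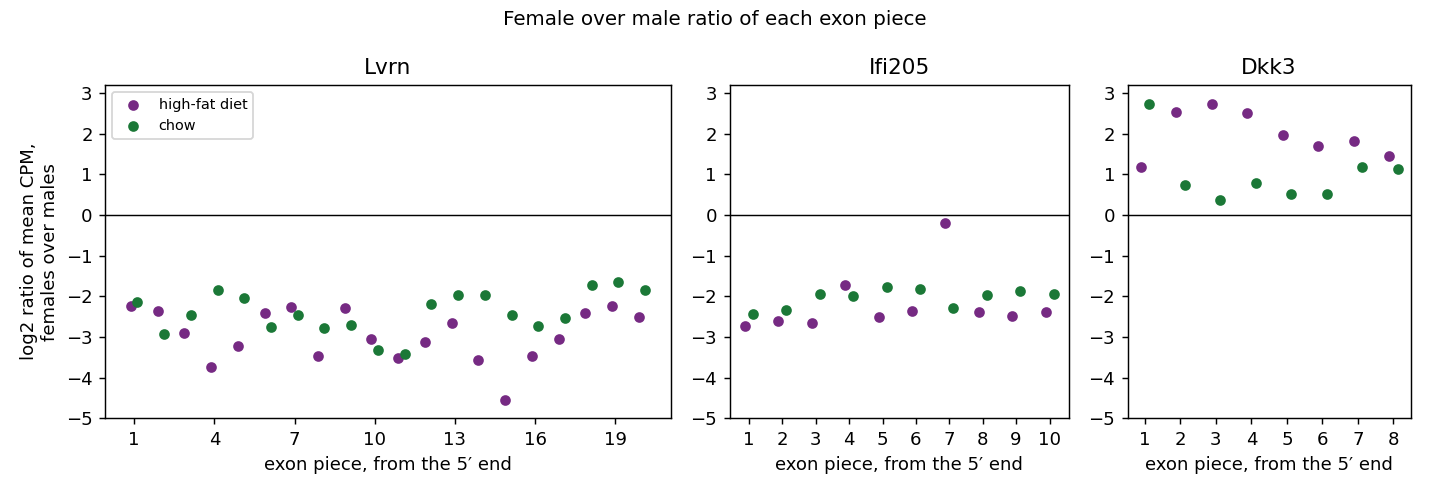
Log2 ratio of mean CPM, females over males, for each exon piece of Lvrn (20 pieces), Ifi205 (10) and Dkk3 (8), numbered from the 5′ end, on high-fat diet and on chow; the line at 0 marks equal levels. Every piece of Lvrn and Ifi205 lies below 0 and every piece of Dkk3 above it on both diets; the Ifi205 point nearest 0, a ratio of 0.875, rests on 13 counts.

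High-fat diet was compared with chow within each sex to ask whether these genes respond to it. None of the 3 passed the test in either sex (edgeR quasi-likelihood test, Benjamini-Hochberg adjusted over 18035 genes). For comparison, 2.53% of tested genes were called in females (1.67% higher and 0.865% lower on high-fat diet) and 0.765% in males (0.399% higher and 0.366% lower). Lvrn differed by -0.33 (log2, high-fat minus chow; 95% interval -1.12 to 0.46, edgeR adjusted p = 0.637) in females and by 0.22 (-0.49 to 0.94, adjusted p = 0.999) in males. For Ifi205 the differences were -0.46 (-1.10 to 0.18, edgeR adjusted p = 0.409) in females and 0.07 (-0.57 to 0.71, adjusted p = 0.999) in males. These intervals are wide for genes of few counts, so a missed threshold does not show equal levels on the diets.

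The female diet differences of Lvrn and Ifi205 rested in part on libraries that stood apart: without high-fat females 4 and 5 they were -0.08 and -0.12 (edgeR adjusted p = 0.883 and 0.855). For Lvrn only high-fat female 4 drew the value down. The Lvrn difference was -0.02 without that library and -0.47 without high-fat female 5. Over all alternatives the adjusted p ran from 0.502 to 0.964 for Lvrn and from 0.21 to 0.855 for Ifi205 in females.

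By its means Dkk3 was higher on high-fat diet than on chow in females and lower in males, without passing the adjusted threshold in either. These diet contrasts share their libraries with the sex contrasts that chose the gene. In females, 2.62 CPM on high-fat diet stood against 2.11 CPM on chow, a difference of 0.31 (log2, SE 0.15, 95% interval -0.01 to 0.64, edgeR adjusted p = 0.276), and 3 of 5 high-fat libraries lay above all chow libraries. In males, 0.747 CPM on high-fat diet stood against 1.15 CPM on chow, a difference of -0.62 (SE 0.17, -0.99 to -0.25, edgeR adjusted p = 0.141), and 3 of 5 high-fat libraries lay below all chow libraries. Chow male 5, at 0.776 CPM, was within the range of high-fat males. Leaving out each library in turn moved the male difference between -0.77 and -0.5, with adjusted p between 0.0515 and 0.462.

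The test of the difference between the diet effects, females minus males, gave 0.94 for Dkk3 (log2, SE 0.23, 95% interval 0.44 to 1.43, edgeR adjusted p = 0.231). No gene of 18035 (0.0%) was called by edgeR for this difference, while 1835 had an unadjusted p under 0.05. With DESeq2, 58 genes were called, Dkk3 among them (adjusted p = 0.0479); over the 28 alternatives its adjusted p ran from 0.0479 to 0.581. Lvrn gave -0.55 (-1.62 to 0.51, edgeR adjusted p = 0.676) and Ifi205 -0.53 (-1.43 to 0.38, edgeR adjusted p = 0.653). This contrast shares all its libraries with the sex contrasts that chose the genes.

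In males, the Dkk3 means of the 2 diets lay further apart in the body of the transcript than in its last piece of 2414 bp. The 7 pieces before the last, 945 bp, summed to 1.49 ± 0.406 CPM in high-fat females, 1.11 ± 0.259 CPM in chow females, 0.328 ± 0.0557 CPM in high-fat males (SD, n = 5 each) and 0.693 ± 0.245 CPM in chow males (SD, n = 4). High-fat males spanned 0.276 to 0.417 CPM there and chow males 0.408 to 0.977 CPM, so that chow male 5, at 0.408 CPM, overlaps the high-fat range. The ratio of high-fat to chow male means was lowest, 0.288, in that coding piece of 138 bp and was 0.921 in the last piece, which holds the end of the coding part and the 3′ untranslated region. The last piece had 1.14 ± 0.202, 1.0 ± 0.113, 0.418 ± 0.137 and 0.454 ± 0.0814 CPM in the same groups.

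Refitted after each gene's largest piece was left out, a setting chosen after these values were seen, the male diet difference of Dkk3 was -1.06 (log2, SE 0.26, edgeR adjusted p = 0.073); from the largest piece alone it was -0.16. Neither passed the threshold, and the adjusted p over all alternatives ran from 0.0515 to 0.972. The sex difference was positive in both: 2.15 on high-fat diet and 0.68 on chow without the largest piece, and 1.47 and 1.11 from that piece alone.

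**Figure D3:**
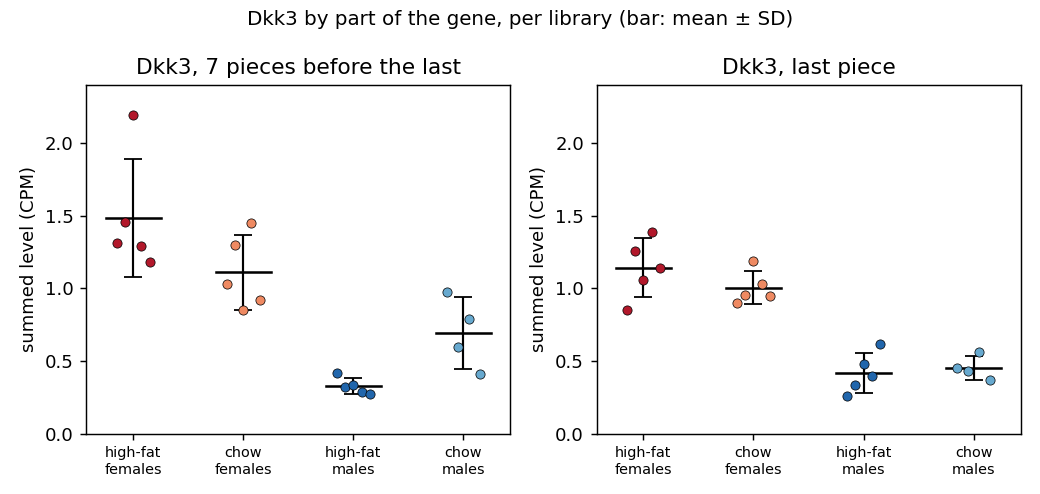
Dkk3 in 19 libraries, split into the 7 exon pieces before the last and the last piece alone (summed CPM, vertical axis from 0); points are libraries and bars the mean ± SD by group. In the pieces before the last, high-fat males average 0.328 CPM and chow males 0.693 CPM; in the last piece they average 0.418 and 0.454 CPM.

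The sex difference was smaller in each tested relative of Ifi205 than in Ifi205 itself, though differences between genes were not tested. Ifi205 was chosen for its sex gap and the relatives were not, so nothing is read from that order. The Ifi200 family list holds 12 other genes found in the files, 10 of them tested. Between females and males on high-fat diet, where 6.4% of all tested genes were called higher and 3.95% lower, 2 of the 10 were lower in females and none higher; on chow, where 1.74% and 1.49% were called, none passed. Ifi207 had 4.52 ± 2.69 CPM in high-fat females and 10.6 ± 1.59 CPM in high-fat males (SD, n = 5 each), a difference of -1.24 (log2, SE 0.33, edgeR adjusted p = 0.0255). Ifi211, the gene that shares most windows with Ifi205, had 2.28 and 4.63 CPM in those groups, a difference of -1.02 (SE 0.26, edgeR adjusted p = 0.0203). Reads over the shared windows could belong to either gene, and Ifi211 was not counted without them.

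Without high-fat females 4 and 5, 2 of the 10 were lower in females on high-fat diet and 2 on chow, where 5.49% of all genes were then called lower on each diet and 4.88% and 5.02% higher, and the high-fat differences of Ifi207 and Ifi211 were -0.72 and -0.63. The median over the 10 genes was -0.26 on high-fat diet and 0.09 on chow, beside 0.01 for all tested genes on each; without those libraries the high-fat median changed sign, to 0.30. The most abundant relatives, Ifi203 and Mndal, had 17 ± 13.7 and 19 ± 14.7 CPM in high-fat females, 20.1 ± 2.27 and 22.8 ± 2.08 CPM in chow females, 28.7 ± 3.13 and 27.5 ± 2.41 CPM in high-fat males (SD, n = 5 each) and 23.2 ± 1.6 and 22.8 ± 2.06 CPM in chow males (SD, n = 4). High-fat females spanned 1.55 to 29.2 CPM for Ifi203 and 2.79 to 31.5 CPM for Mndal, and their diet differences were -0.24 and -0.26 with all libraries but 0.42 and 0.38 without high-fat females 4 and 5. None of the 10 was called for diet in either sex with all libraries; without high-fat females 4 and 5, 3 were higher on high-fat diet in females, where 2.46% of all genes were then higher and 2.5% lower (Ifi203, Ifi208 and Mndal, edgeR adjusted p = 0.0179, 0.0312 and 0.0150). Aim2, the DNA sensor that assembles an inflammasome, was at 1.45, 2.06, 1.39 and 1.58 CPM in the same order of groups, with sex differences of 0.06 on high-fat diet and 0.39 on chow that were not called. Without high-fat females 4 and 5 its high-fat sex difference was 0.50, also not called (edgeR adjusted p = 0.115).

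**Figure D4:**
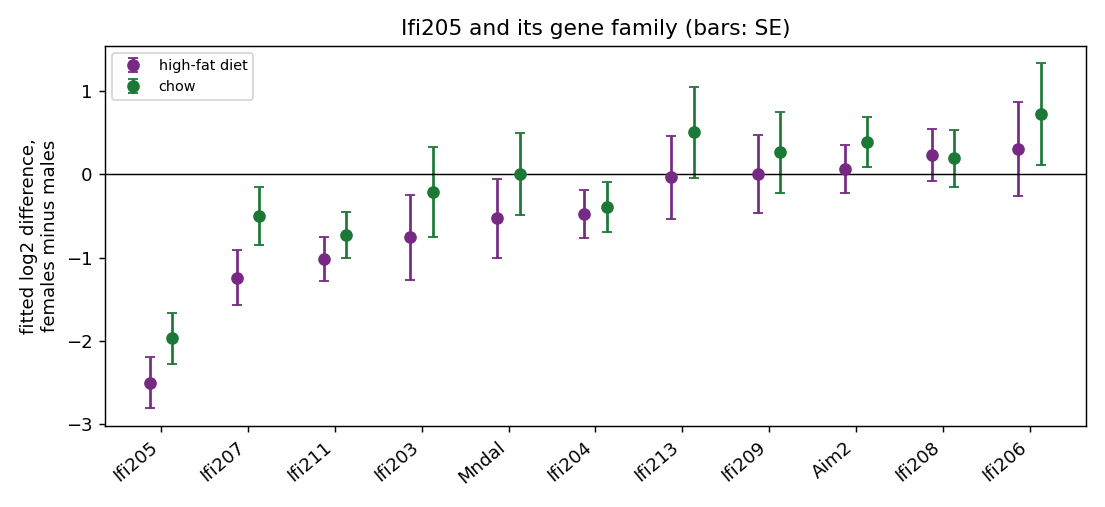
Fitted log2 difference between females and males for Ifi205 and the 10 tested relatives on high-fat diet and on chow, with bars of 1 SE; points below 0 are lower in females. Ifi205 lies at -2.50 and -1.97, and Ifi207 (-1.24) and Ifi211 (-1.02) are the relatives called, on high-fat diet.

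Interferon-stimulated and DNA-sensing genes ran against Ifi205 where they were called. Of 34 tested, 4 were higher in females than in males on high-fat diet and none lower, and none was called on chow. Of all genes tested, 6.4% were called higher and 3.95% lower on high-fat diet, and 1.74% and 1.49% on chow. The medians were 0.33 and 0.44, against 0.01 over all genes. Without high-fat females 4 and 5 the counts were 10 higher on high-fat diet and 4 on chow, with none lower. Of all genes, 4.88% and 5.02% were then called higher. Ifi27l2a, strongly induced by type I interferon, had 19.3 ± 2.25 CPM in high-fat females and 9.17 ± 1.64 CPM in high-fat males (SD, n = 5 each; log2 difference 1.08, edgeR adjusted p = 0.00183). Ifit3, Oasl2 and Rtp4, also antiviral response genes, were higher by 0.93, 0.54 and 0.54.

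The summed level of the 34 genes was 373.0 to 622.5 CPM in high-fat females, 391.6 to 862.3 CPM in chow females, 364.3 to 467.4 CPM in high-fat males and 360.4 to 391.8 CPM in chow males. The top value, 862.3 CPM, belonged to chow female 3, which also had the highest Ifi205 of the female libraries, 3.99 CPM. The 4 highest sums belonged to female libraries, while high-fat males 2, 3 and 5 (448.5, 467.4 and 434.7 CPM) lay above 6 of the 10 females.

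Among the M1 aminopeptidases, the enzyme family of Lvrn, 10 others were tested and 1 was called: Anpep (aminopeptidase N, CD13) was higher in females, opposite to Lvrn. Of all genes tested, 6.4% were called higher in females on high-fat diet and 1.74% on chow. It had 21.4 ± 3.08 CPM in high-fat females, 15.4 ± 1.1 CPM in chow females, 11.9 ± 1.01 CPM in high-fat males (SD, n = 5 each) and 10.9 ± 0.789 CPM in chow males (SD, n = 4). Females exceeded males by 0.84 (log2, SE 0.09, edgeR adjusted p = 2.01e-05) on high-fat diet and by 0.49 (SE 0.10, adjusted p = 0.00831) on chow, and high-fat diet raised Anpep in females by 0.48 (SE 0.09, edgeR adjusted p = 0.00936). The family's median sex difference was 0.03 on high-fat diet and 0.00 on chow. Leaving out high-fat females 4 and 5 gave 2 calls on high-fat diet and 3 on chow, all higher in females. Of all genes, 4.88% and 5.02% were then called higher. The diet difference of Anpep in females was 0.34 without those libraries (edgeR adjusted p = 0.0215).

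Of 15 genes of angiotensin and peptide processing, 1 was higher and 1 lower in females on each diet, which on high-fat diet is near the 6.4% and 3.95% of all genes. Ace, the angiotensin-converting enzyme, was lower in females, with 47.6 ± 3.59 CPM in high-fat females and 66.5 ± 4.13 CPM in high-fat males (SD, n = 5 each; -0.48 on the log2 scale, edgeR adjusted p = 0.000383), and by -0.71 on chow (edgeR adjusted p = 1.29e-05). Agtr1a, the main angiotensin II receptor, was higher in females by 0.37 and 0.48. High-fat diet raised 1 of the 15 in females, the endothelin-converting enzyme Ece1 (0.22, edgeR adjusted p = 0.0467), and none in males. With high-fat females 4 and 5 set aside, Ece1 was not called (0.12, edgeR adjusted p = 0.117), and between the sexes 1 gene was lower on high-fat diet, and 1 was higher and 2 lower on chow.

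Some other genes listed with the Dickkopf family and secreted Wnt antagonists were, like Dkk3, higher in females. The list is broader than its name, as it also holds Kremen1, Znrf3 and Cpz. Of 14 tested besides Dkk3, 4 were higher and none lower in females on high-fat diet, where 6.4% and 3.95% of all genes were called. On chow, 3 were higher and 1 lower, where 1.74% and 1.49% were called. The medians were 0.16 and 0.09. Cpz, a secreted carboxypeptidase with a Frizzled-like domain, had 1.05 ± 0.125 CPM in high-fat females, 0.724 ± 0.162 CPM in chow females, 0.376 ± 0.088 CPM in high-fat males (SD, n = 5 each) and 0.308 ± 0.104 CPM in chow males (SD, n = 4). Its difference was 1.49 (log2, SE 0.23, edgeR adjusted p = 0.000602) on high-fat diet and 1.23 (SE 0.25, adjusted p = 0.00949) on chow. Sfrp1 and Frzb, secreted Frizzled-related proteins, were higher by 0.54 and 0.35 on high-fat diet and by 0.38 and 0.54 on chow. Frzb was not called on high-fat diet without high-fat females 4 and 5 (edgeR adjusted p = 0.161).

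Sost, which encodes sclerostin, was lower in females on chow by -1.0 (SE 0.26, edgeR adjusted p = 0.043), at 0.227 ± 0.0682 CPM in chow females (SD, n = 5) and 0.456 ± 0.0957 CPM in chow males (SD, n = 4). The close relatives of Dkk3 were hardly present: Dkk1, Dkk2, Dkk4 and Dkkl1 had 13, 45, 7 and 18 counts over all 19 libraries and were not tested. With high-fat diet, Sfrp5 was higher in females by 1.13 (edgeR adjusted p = 0.0449), and by 1.06 (adjusted p = 0.0785) without high-fat females 4 and 5. None of the 14 passed in males with all libraries, where Sfrp5 differed by 1.15 (edgeR adjusted p = 0.0926). Without high-fat females 4 and 5, Sfrp5 was called in males (1.15, edgeR adjusted p = 0.047).

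Of 35 other Wnt ligands, receptors and target genes, 3 were higher and 1 lower in females on high-fat diet, and 1 was higher on chow. These counts are near the shares of all genes tested, 6.4% higher and 3.95% lower on high-fat diet and 1.74% higher on chow. Axin2, a common target of Wnt signalling, had 4.0 ± 0.394 CPM in high-fat females and 2.63 ± 0.499 CPM in high-fat males (SD, n = 5 each; log2 difference 0.60, edgeR adjusted p = 0.00433). The transcription factor Tcf7 and the receptor Fzd2 were higher by 1.04 and 0.79, while the receptor Fzd4 differed by -0.26. Without high-fat females 4 and 5, Fzd4 differed by -0.21 and was not called (edgeR adjusted p = 0.0501). On chow the gene was the ligand Wnt5b (0.53). Setting high-fat females 4 and 5 aside left 3 higher on high-fat diet and gave 4 higher and 2 lower on chow, beside the 5.02% and 5.49% of all genes then called there. High-fat diet raised the co-receptor Lrp5 in females (0.29, edgeR adjusted p = 0.03; 0.17 and 0.0503, not called, with high-fat females 4 and 5 set aside) and the receptor Lgr6 (0.52) in males.

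No sex steroid receptor or enzyme of 13 tested was called between the sexes on either diet; the oestrogen receptor Esr1 had 0.468, 0.433, 0.347 and 0.288 CPM in high-fat females, chow females, high-fat males and chow males. When high-fat females 4 and 5 were left out, 1 was lower on high-fat diet and 2 were higher on chow in females. Sult1e1, the oestrogen sulfotransferase, had too few counts to be tested (84 in all) and is named after its values were seen: it was at 0 in all 10 female libraries, at 0.064 to 0.269 CPM in high-fat males and at 0.0402 to 0.139 CPM in chow males. The lowest male value lies at the floor of 3 counts, 0.0359 to 0.0538 CPM, and the others rest on few counts. Hsd17b11, a hydroxysteroid dehydrogenase of lipid droplets, was raised by high-fat diet by 0.54 in females and 0.87 in males (edgeR adjusted p = 0.0134 and 0.00107).

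Markers of fibroblasts and of time of day differed between the sexes beside these genes, while most other cell-type lists had few or no calls. Of 14 cardiomyocyte markers none was called on either diet. Of 12 markers of pericytes and smooth muscle, 4 were higher in females on high-fat diet and none on chow. Of all genes tested, 6.4% were called higher and 3.95% lower on high-fat diet, and 1.74% and 1.49% on chow. Fibroblast markers were higher in females in 9 of 14 on high-fat diet and 3 of 14 on chow, with none lower, and their sum was 3287.6 to 4089.8 CPM in high-fat females, 2877.8 to 3209.0 CPM in chow females, 2905.8 to 3117.2 CPM in high-fat males and 2746.8 to 2977.8 CPM in chow males; no marker was at 0. Without high-fat females 4 and 5 the fibroblast counts were 8 higher and 1 lower on high-fat diet and 3 and 1 on chow. On high-fat diet, 1 cardiomyocyte marker was then lower and 3 markers of pericytes and smooth muscle were higher. Tcf21 and Pdgfra, which define cardiac fibroblasts, differed by 0.45 (edgeR adjusted p = 0.015) and 0.10 (adjusted p = 0.185) on high-fat diet. The fibroblast sums of the sexes do not overlap on high-fat diet and overlap on chow, and their part in the levels of Dkk3 was not tested.

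For Ifi205, macrophage and monocyte markers summed to 254.9 to 288.1 CPM in high-fat females, 234.2 to 314.1 CPM in chow females, 234.9 to 286.3 CPM in high-fat males and 276.3 to 325.7 CPM in chow males. Of these 13 markers, 2 were higher and 1 lower in females on high-fat diet and none passed on chow. Of all genes, 6.4% were called higher and 3.95% lower on high-fat diet. Without high-fat females 4 and 5, 1 marker was higher and 1 lower on high-fat diet, and 1 was lower on chow. Lymphocyte markers were scarce, 5.56 to 9.52 CPM in sum over all libraries, and none of 10 tested was called. In neither list was a marker at 0, and the sums of the sexes overlap.

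The clock list holds 18 genes, of which females had 10 higher and 5 lower on high-fat diet, and 9 and 5 on chow (10 and 6, and 11 and 6, without high-fat females 4 and 5). With all libraries, 6.4% of all genes were called higher and 3.95% lower on high-fat diet, and 1.74% and 1.49% on chow. Arntl (Bmal1), which drives the clock's positive limb, had 7.55 ± 1.66 CPM in high-fat females, 11.8 ± 2.36 CPM in chow females, 31.0 ± 4.04 CPM in high-fat males (SD, n = 5 each) and 37.5 ± 2.19 CPM in chow males (SD, n = 4). Dbp, a clock output gene of opposite phase, had 110.6 ± 24.6, 91.7 ± 13.7, 15.2 ± 3.78 and 8.94 ± 1.5 CPM in the same groups. The sexes did not overlap for either. Sex and the levels of clock genes cannot be told apart in these groups, and the part of the clock in the levels of Lvrn, Ifi205 and Dkk3 was not tested.

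The genes of nearest profile are given as a description only: the 3 genes were chosen for their sex gap, and a distance over the same 19 libraries puts first the genes with a similar gap. Likeness was the root mean square difference of log2(CPM + 0.5), each gene centred on its own mean, among the 13056 genes that averaged 1 CPM or more. For Lvrn it was 0.37 to Arntl, 0.43 to Npas2, the partner that can replace Clock beside Arntl, and 0.43 to C7, a complement component, against a median of 1.0 over all genes compared. For Ifi205 it was 0.39 to Arntl, 0.45 to C7 and 0.51 to Ano5, an anoctamin of muscle membranes, against a median of 1.11.

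C7 shows how close such a profile is in levels: it had 2.93 ± 0.396 CPM in high-fat females, 2.47 ± 0.49 CPM in chow females, 12.9 ± 2.84 CPM in high-fat males (SD, n = 5 each) and 13.6 ± 2.64 CPM in chow males (SD, n = 4). Nearest to Dkk3 were Tspan4, a tetraspanin (0.23), Col14a1, a fibril-associated collagen (0.24), and Nrg2, a neuregulin (0.25), against a median of 0.58. Col14a1 had 46.6 ± 2.81, 38.6 ± 6.93, 17.2 ± 2.79 and 18.4 ± 1.7 CPM in those groups, and Tspan4 averaged 43.0, 37.7, 19.6 and 19.5 CPM. Nrg2 overlapped between the sexes, with a lowest value of 1.84 CPM in high-fat females and a highest of 2.3 CPM in chow males. All profiles share the same libraries.

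**Figure D5:**
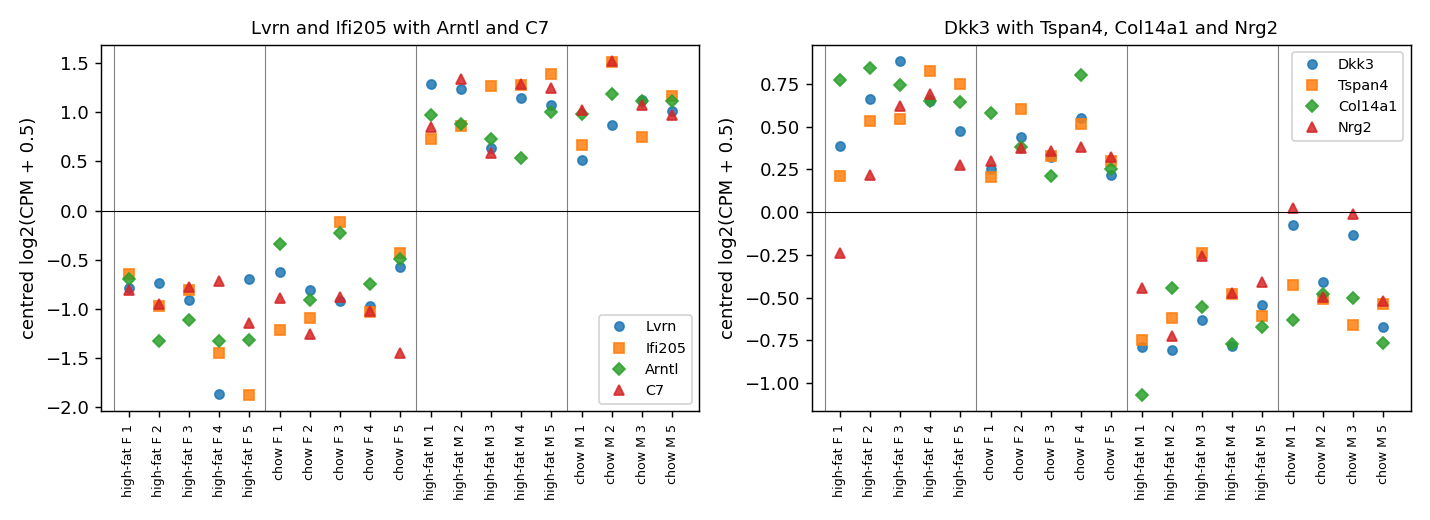
Centred log2(CPM + 0.5) in 19 libraries for Lvrn and Ifi205 with Arntl and C7, and for Dkk3 with its nearest genes; each point is a library, ordered by group. Lvrn, Ifi205, Arntl and C7 lie low in females and high in males; Dkk3, Tspan4 and Col14a1 lie high in females and low in males.

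Of the 18 tested genes nearest to the 3 on their chromosomes, 3 on each side, 2 were called between the sexes on high-fat diet, where 10.4% of all genes were, and 1 on chow, where 3.23% were. These counts are near the background. None of the 6 neighbours of Lvrn was called on either diet. Around Ifi205, Ifi211 alone was called, on high-fat diet, and it shares sequence with Ifi205. Around Dkk3, Mical2, an actin-oxidising enzyme, was lower in females on chow (log2 difference -0.29, edgeR adjusted p = 0.00603) and Parva, an integrin-linked adaptor, higher on high-fat diet (0.25, edgeR adjusted p = 0.00299). The immediate neighbour Usp47, 4356 bp from Dkk3, differed by -0.53 and -0.23 on high-fat diet and on chow and was called on neither.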

How the data were processed

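The authors deposited whole-number counts in a file for each sample. Salmon 1.5.1, DESeq2 1.32.0 and GRCm39 are named in the submitters' processing notes, but 19 files hold deposited counts for 425461 exon pieces whose coordinates match GRCm38, and chow male 4 holds counts per gene; the counting program and the use of strand are not given in the sources used here. A read over several pieces counts in each, so totals exceed reads. Piece counts were summed per gene ID; 27968 of 33309 joined pieces were given to 1 gene and 5341 were not used (1.17% to 1.29% of counts). Names came from GENCODE for GRCm38; 43691 of 48967 genes start and end there as in the files.

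Testing used the quasi-likelihood F-test of edgeR 4.0.16 on TMM-scaled counts after its expression filter, in 1 model over the 4 groups (15 residual degrees of freedom), with Benjamini-Hochberg adjustment over all genes and a threshold of 0.05. Intervals are 95%, from the fitted SE. Scripts were tested on simulated counts. Alternatives were DESeq2 1.42.0, other filters and scalings, only the groups compared, a replicate block, the largest exon piece, chow male 4 joined, high-fat females 4 and 5 left out and each library left out. The members, the gene lists and the tests were chosen with earlier results of these data known. Named genes besides the members were the 3 of nearest profile, the 3 nearest tested on each side, up to 4 called of each list per contrast, and fixed genes for sex, time of day and library quality. Of promoter sequences, that of Ifi205 matched by symbol.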

Additional observations from a re-analysis of the deposited data

Results flagged for a closer look

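Of 20 sets of values checked for a library far from the rest of its group, 2 held one, where chance gives about 1 in 20. Lvrn in high-fat female 4 was at 0.0413 CPM, while the other 4 high-fat females lay between 0.544 and 0.712 CPM; it is also a library with low Malat1. The Dkk3 exon pieces before the last summed to 2.19 CPM in high-fat female 3, against 1.18 to 1.46 CPM in the others of its group.

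For Dkk3 the high-fat libraries lay on opposite sides of the chow means in the sexes, although neither diet difference passed the threshold (edgeR adjusted p = 0.276 in females and 0.141 in males). All 5 high-fat females lay above the chow female mean and all 5 high-fat males below the chow male mean, and the difference between the diet effects was 0.94 on the log2 scale (edgeR adjusted p = 0.231), and 0.36 from the largest exon piece alone. That difference is built from the sex contrasts that chose the genes, so it is a description.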

How the results depend on the processing

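No change of the 3 genes with diet passed the threshold under any alternative with a test, apart from the difference of the Dkk3 diet effects with DESeq2 (0.94, adjusted p = 0.0479; 0.0479 to 0.581 over all alternatives). That difference is built from the sex contrasts that chose the genes, so its call is not support. With each library left out, that difference ran from 0.82 to 1.08, and the Ifi205 diet difference in males, near 0, from -0.05 to 0.27, with a negative sign without chow male 1 (-0.05), chow male 3 (-0.03) or high-fat male 5 (-0.01). From the largest exon piece alone, the sex difference of Lvrn was -2.44 on high-fat diet and -1.81 on chow, and that of Dkk3 1.47 and 1.11; with the largest piece left out Dkk3 gave 2.15 and 0.68. The causes were not tested. Under all alternatives the sex differences of the 3 genes kept their direction. That of Ifi205 on high-fat diet was -2.15 without high-fat females 4 and 5, against -2.50 (SE 0.31) with all libraries.

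Counts of all genes called moved with the setting. For diet in females, 457 genes were called, against 995 with DESeq2, 195 with no filter, 21 from only the groups compared, 907 without high-fat females 4 and 5, 70 with chow male 4 joined and 255 from the largest piece. For diet in males, 138 compares with 256, 84, 571, 475, 84 and 90 in that order. For their difference, 0 compares with 58 with DESeq2 and 1 from the largest piece. For sex on high-fat diet, 1868 compares with 1107 with no filter, 550 from only the groups compared and 615 with chow male 4 joined. For sex on chow, 582 compares with 899 with DESeq2, 351 with no filter, 1540 from only the groups compared, 1918 without high-fat females 4 and 5 and 356 from the largest piece. Each library left out gave 219 to 932 and 42 to 198 for diet in females and males, 0 to 5 for their difference, and 1094 to 3535 and 261 to 859 for sex on high-fat diet and on chow. Shifts of over 1.5 times came, for diet in females, without chow females 1 (253) and 4 (219) and high-fat females 1 (932) and 4 (278). For diet in males they came without chow males 1, 2, 3 and 5 (42, 47, 86 and 52) and high-fat males 2, 3 and 5 (80, 75 and 79). For the difference it was without high-fat female 1 (5). For sex on high-fat diet it was without high-fat females 1 and 4 (3535 and 1110) and high-fat males 3, 4 and 5 (1094, 1180 and 1220). For sex on chow it was without chow females 1 and 4 (378 and 358) and chow males 1, 2 and 3 (347, 261 and 326). No strong pairing by replicate number was seen: deviations of same-numbered libraries correlated at -0.173 to 0.245, with 9 of 27 pairs over 0.1. Of 19 libraries, 7 correlated best with their own number. The share that chance gives was not computed, so pairing is not excluded. With the replicate block, diet in males gave 85 genes and diet in females 340, and no call of the 3 genes changed.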
